A study of Homo sapiens with 4 samples.

Results

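The genes for the protein components of the cytosolic ribosome were examined in RNA-seq data from MDA-MB-231 Fluc cells. Members were the rows of the authors' table whose gene symbol is that of a large subunit protein (RPL or RPLP and a number) or of a small subunit protein (RPS and a number, or RPSA), with pseudogenes left out. This gave 83 of the 13957 genes in the table, 51 of the large and 32 of the small subunit. They comprised 77 canonical ribosomal protein genes, 46 large and 31 small, and 6 paralogues, RPL7L1, RPL22L1, RPL26L1, RPL36AL, RPL39L and RPS27L. All 77 canonical genes listed for the search had a row. FAU, whose ribosomal protein is made as a fusion to a ubiquitin-like protein, has a symbol outside this rule and is treated with the other translation genes.

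MDA-MB-231 is a breast cancer cell line from a triple-negative tumour, and the Fluc derivative carries an inserted luciferase gene for imaging. Total RNA was taken from 2 samples treated with 50 μM cordycepin and from 2 samples given the vehicle DMSO, each for 2 h. Cordycepin is an adenosine analogue known as an inhibitor of polyadenylation. Stranded libraries were made after depletion of ribosomal RNA and read as 75 bp paired ends. No other allele or agent is named for either group, and a parental line without luciferase was not analysed here.

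The authors' table gives 1 level per gene as log2 CPM, which are read counts scaled to the size of the library. The level carries no sample name and was taken, here and in the figures, as the mean over all 4 samples. Each level below therefore pools treated and control cells, carries no SD, and says nothing of the response to cordycepin. The depth of the individual libraries is unknown. Because long genes collect more reads, levels were compared between genes after division by the exon length in the table, as log2 CPM per kb. The cell line was checked against markers on the log2 CPM scale. All 6 mesenchymal markers had a row, with levels from 8.58 (FOSL1) to 11.01 (AXL), and 5 of 7 luminal or receptor markers had a row, with levels from 2.34 (FOXA1) to 8.34 (KRT19), ESR1 and PGR having none.

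A ribosome is built from a large subunit, which joins amino acids, and a small subunit, which reads the mRNA, and nearly every ribosomal protein is present in a single copy. Their mRNAs are short, abundant and long-lived, and many begin with a run of pyrimidines known as the terminal oligopyrimidine (TOP) motif, through which growth signals control their translation. The family is also known for its many processed pseudogenes, copies of the mRNA inserted elsewhere in the genome, which complicate the assignment of short reads.

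As a family, these genes were among the most abundant in the table. The median of their levels was 6.59 log2 CPM per kb, compared with 2.43 over all genes, and 78 of 83 members were above that table median. Of the members, 74 were above the upper quartile of the table and 59 above its 90th percentile on the same per-length scale. Without division by length, the median was 8.52 log2 CPM against 4.58 over all genes. On that scale 46 members were among the 500 rows with the highest CPM, and 2 were among the highest 100. Members made up 0.595% of the rows and 3.06% of the summed CPM, of which 1.93% came from large subunit genes and 1.13% from small subunit genes. These are shares of reads assigned to the members' own rows, and they do not count reads assigned to pseudogene rows.

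Although their proteins sit in nearly equimolar amounts in the ribosome, the reads assigned to the members' own rows gave widely spread levels. From the lowest to the highest member, levels ran from 0.80 to 9.25 log2 CPM per kb, with quartiles of 5.14 and 7.60. With pseudogene rows added, they ran from 0.80 to 9.29, with quartiles of 6.32 and 7.96. The highest was RPL8, a large subunit protein near the peptidyl transferase centre, at 9.25. Also among the 5 highest were RPS12 at 8.98, RPLP2 at 8.45 and RPS21 at 8.35. The lowest was RPL36A at 0.80, and 5 members were at or below the table median per kb, among them RPS10 at 1.41, RPL21 at 2.22 and RPS27L at 2.41. When levels were not divided by length, the highest members were RPL8 (10.37 log2 CPM), RPLP0 (9.98), RPS19 (9.57), RPS3 (9.55) and RPL18 (9.52), and the 5 lowest included RPS10 (2.61), RPL36A (2.78), RPL21 (3.39) and RPL39L (4.52). RPL36A, RPS10 and RPL21 were thus among the 5 lowest with and without the length.

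**Figure D1:**
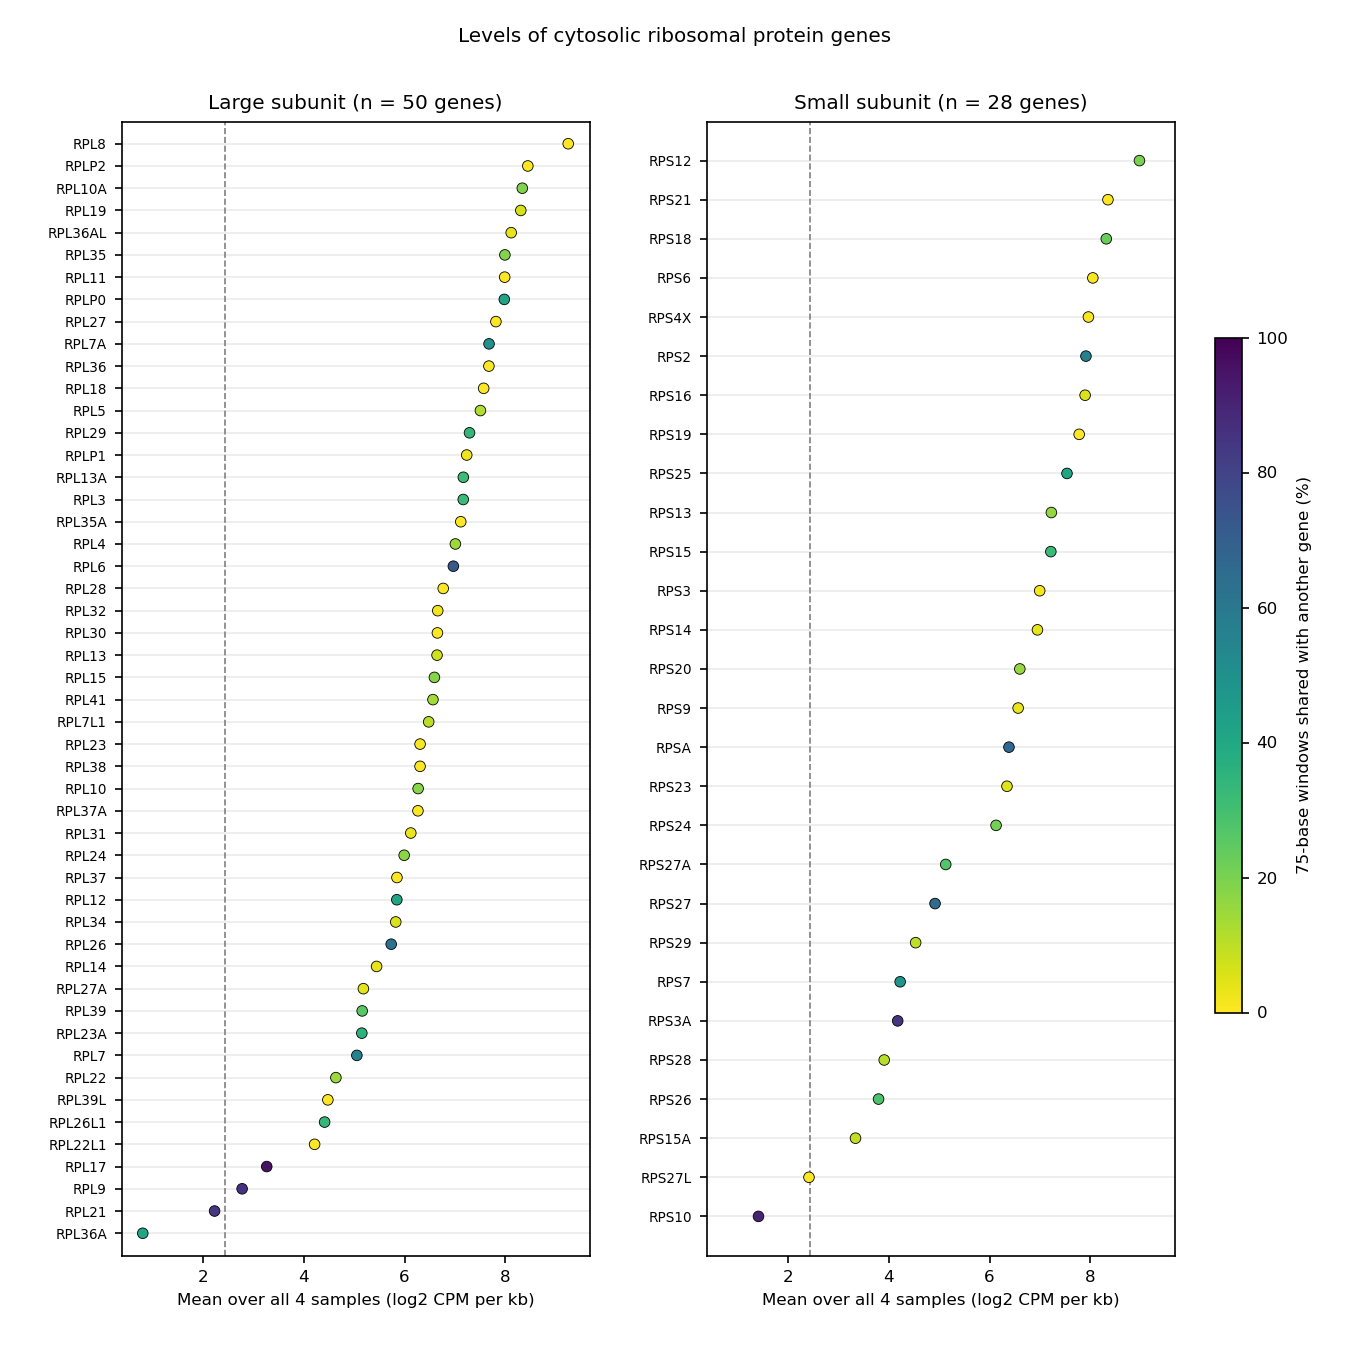
Levels of 50 large and 28 small subunit genes, 1 point per gene, as the authors' mean over all 4 samples in log2 CPM per kb of exon. Colour gives the share of 75-base windows of the canonical transcript that also occur in another annotated gene (%), and the dashed line is the median over all genes (2.43). The members plotted at or below the line are RPL36A, RPS10, RPL21 and RPS27L, of which RPS27L has the lightest point (0.10% shared).

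Large and small subunit genes were next compared. The median level was 6.57 log2 CPM per kb for large subunit genes and 6.78 for small subunit genes, a difference of -0.21, large minus small. The interquartile ranges were 2.09 and 3.36, so the difference of medians was small beside the spread within each subunit. Of all pairs of a large and a small subunit gene, the large subunit gene had the higher level in 48.6%. No test was made, because the genes of a subunit are not replicates of it.

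The difference kept its sign with each of 3 lengths, but not without length or with means. Without length the difference of medians was 0.21 on the log2 CPM scale, with the large subunit higher. Per kb of the canonical transcript it was -0.94 (8.05 against 8.99), and per kb of coding sequence it was -0.19 (9.37 against 9.55). With means in place of medians, per kb of exon, it was 0.10. The exon length of the table joins the exons of all transcripts of a gene, and for these genes it was long: its median was 2.89 times the length of the canonical transcript, and in 64 members it was over 2 times that length. RPS29 is an example, with 9840 bases of exon in the table and 295 bases in the canonical transcript, and its level was 4.53 log2 CPM per kb by the former and 9.59 by the latter. RPS29 was chosen after its values were seen. Dividing by the exon length therefore lowers the level of such genes.

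**Figure D2:**
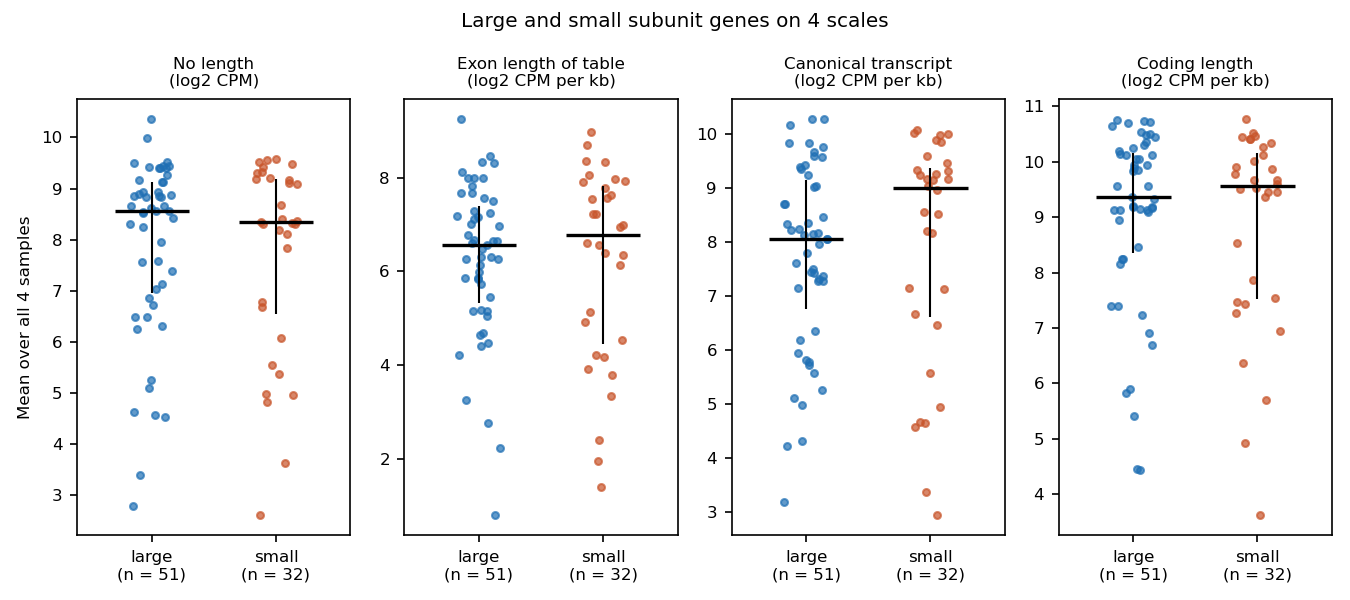
Levels of large (n = 51) and small (n = 32) subunit genes as the authors' mean over all 4 samples, without division by length and per kb of the table's exon length, of the canonical transcript and of the coding sequence (log2 CPM or log2 CPM per kb). Points are genes, horizontal lines medians and vertical lines the interquartile range over genes; the medians of the subunits differ by 0.21, -0.21, -0.94 and -0.19, large minus small.

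Outliers within a subunit were taken as genes further than 1.5 interquartile ranges from the quartiles of that subunit. Per kb of exon, RPL36A was outside in the large subunit and no gene was outside in the small subunit. On the log2 CPM scale RPL36A and RPL21 were outside, and per kb of coding sequence RPL36A, RPL21 and RPL17. None was outside per kb of the canonical transcript. Each of these genes was low, and no member was high enough to be outside on any of the 4 scales.

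RPL36A, on chromosome X, encodes a large subunit protein that binds near the exit site for transfer RNA. It had 2.78 log2 CPM, or 6.89 CPM, over 3965 bases of exon. Its paralogue RPL36AL on chromosome 14, which encodes a nearly identical protein, had 7.56 log2 CPM, or 188 CPM, over 676 bases. The difference of levels, RPL36AL minus RPL36A, was 7.32 per kb of exon, 4.94 per kb of the canonical transcript and 4.77 without length, so RPL36AL was the higher on each scale. The coding sequences of these genes are the same at 89.9% of aligned positions, yet no window of 75 bases of RPL36A is found in RPL36AL. RPL36A also overlaps the annotated read-through gene RPL36A-HNRNPH2, which holds 37.7% of its windows and has no row in the table. A read in those windows lies in both genes of the annotation, and the part of this overlap in the low level was not tested.

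The other paralogues were described beside their partners in the same way. RPL7L1, which acts in assembly of the large subunit, had 6.48 log2 CPM per kb and RPL7 had 5.05, a difference of 1.43. RPL22L1 had 4.21 and RPL22, an RNA-binding protein of the large subunit, had 4.64, a difference of -0.42. RPL39L, known from the testis, had 4.48 and RPL39, a short protein of the exit tunnel, had 5.16, a difference of -0.68. RPL26 lies at the exit of the same tunnel. RPL26L1 had 4.41 and RPL26 had 5.74, a difference of -1.32.

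RPS27L, described as a target of p53, had 2.41 and RPS27 had 4.92 log2 CPM per kb, a difference of -2.51. Its table length of 8825 bases is long beside the 1028 bases of RPS27, and without length RPS27L was the higher by 0.60 on the log2 CPM scale, at 5.55 against 4.96. Per kb of the canonical transcript RPS27L was again the lower, at 2.94 against 6.46, a difference of -3.52. RPL36AL and RPL7L1 were above their partners, and RPL22L1, RPL26L1 and RPL39L below theirs, with and without length and per kb of the canonical transcript. For RPL7L1 this turned when the CPM of pseudogene rows was added to the gene they are named after. RPL7 then had 9.59 log2 CPM (8.16 per kb of exon) and RPL7L1 9.46 (6.499 per kb). Of the rows added to RPL7, RPL7P21 (20.6 CPM) and RPL7P22 (13.5 CPM) shared windows with RPL7L1 and 0% of theirs with RPL7. The order without length, 772 against 706 CPM, therefore depends on where such rows are counted. RPL7 itself held 11.6% of the CPM of RPL7 and its pseudogenes. The median of the 6 differences was -0.55 per kb of exon.

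Identity between the coding sequences of a paralogue and its partner ranged from 55.7% (RPL7L1 and RPL7) to 94.8% (RPL39L and RPL39), with 66.6% for RPL22L1, 77.8% for RPS27L and 84.1% for RPL26L1. In all 6 pairs, 0% of the 75-base windows of the partner were found in the paralogue. For 2 pairs, the first 30 coding bases of the partner's longest coding exon are printed above their best ungapped match in the paralogue. Differing bases are in capitals (GRCh38).
RPS27, chr1:153991566-153991595, plus strand: gAtgctaTaaAatcaccacggtCttTagcc
RPS27L, chr15:63155702-63155731, minus strand: gTtgctaCaaGatcaccacggtTttCagcc
RPL22, chr1:6186787-6186816, minus strand: gtatttgaaataTctCaccaaAaaataTTt
RPL22L1, chr3:170866495-170866524, minus strand: gtatttgaaataCctTaccaaGaaataCCt
In both stretches 5 of 30 bases differ.

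Low levels were next set beside the sequence that members share with other genes. For each member, the canonical transcript was cut into all windows of 75 bases, the read length, and the share of windows found without mismatch in a transcript of any other annotated gene was counted. Of 83 members, 69 had at least 1 shared window, 28 had over 25% shared and 13 had over 50%. The 13 members over 50% had a median level of 4.68 log2 CPM per kb. The 15 members between 25% and 50% had a median of 5.85, the 24 between 5% and 25% had 6.62, and the 31 with 5% or less had 6.95. Per kb of exon, levels were therefore lower, by median, in groups with more shared sequence, although the groups overlapped. The 13 members over 50% spanned 1.41 to 7.92 and the 31 with 5% or less spanned 2.41 to 9.25. Over the 83 genes, Spearman's rho of level per kb of exon with the shared share was -0.37. Per kb of the canonical transcript, the medians in the same order of groups were 6.18, 7.80, 9.18 and 8.35. On that scale the group between 5% and 25% was therefore the highest, and rho was -0.29. Both rho values are given as a description because these genes were counted in the same libraries.

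Of the 10 members with the lowest level per kb, 7 had over 25% of their windows shared, and of the 10 with the highest level, 0 did. RPL17, a tunnel exit protein, had 95.4% shared, all found in the read-through gene RPL17-C18orf32 and 75.2% also in its pseudogenes, and a level of 3.26 log2 CPM per kb. RPS10, a small subunit protein, had 89.9% shared, with 81.7% of its windows in the read-through gene RPS10-NUDT3 and 74.9% in genes elsewhere. RPL9 (85.4%), RPS3A (84.4%) and RPL21 (84.3%) shared windows with pseudogenes or other genes elsewhere in the genome. The exceptions among the low members were RPS27L, with 0.10% shared, and RPS15A and RPS28, with 9.16% and 10.8%. RPL6 and RPS2 were exceptions in the other direction, with 72.1% and 56.6% shared and levels of 6.97 and 7.92. How reads that match several genes were counted is not given in the sources used here, and the part of shared sequence in these levels was not tested. RPL6, RPL9, RPS15A and RPS3A were named here after their values were seen.

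**Figure D3:**
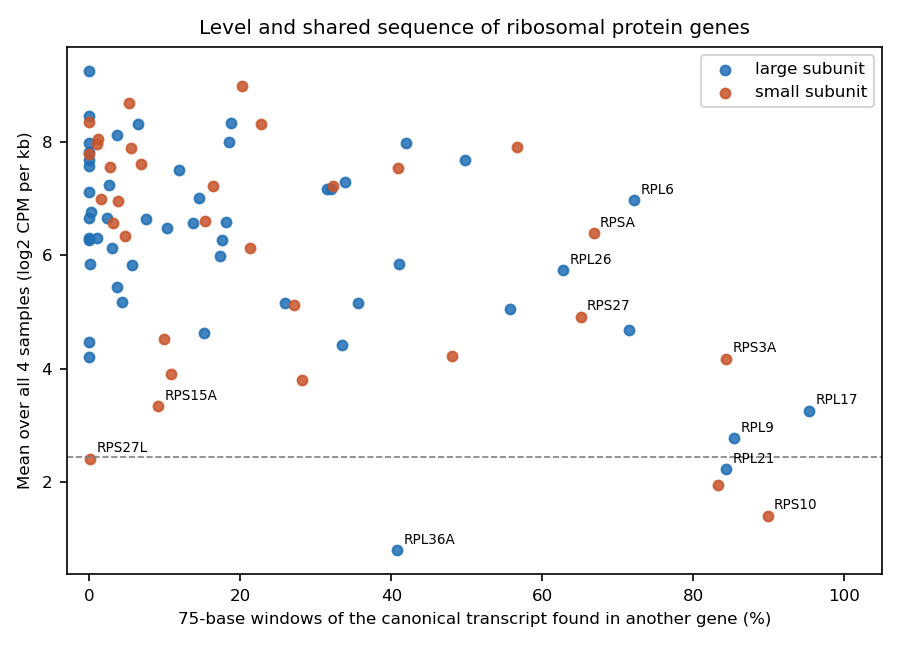
Level of each of the 83 genes (log2 CPM per kb of exon, the authors' mean over all 4 samples) against the share of its 75-base windows found in another annotated gene (%). Each point is a gene, the dashed line is the median over all genes (2.43), and members with over 80% shared lie at 4.17 or below, while RPL6 and RPSA with 72.1% and 66.8% shared lie at 6.97 and 6.39.

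The pseudogenes of these genes had rows of their own. The table held 187 rows named as a member followed by P and a number, for 60 of the 83 members, and 23 members had none. Together they took 1.37% of the summed CPM, which was 30.9% of the reads assigned to members and pseudogenes combined. Their median level was 3.44 log2 CPM, and 65 of them were at or above the table median. Of the 186 with a transcript in GENCODE, 184 had a single exon, the form of a processed copy. In 59 of the 186 no window of 75 bases was shared with the parent, and in 5 all windows were.

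In 25 members the pseudogene rows added up to more CPM than the member itself, and in 19 members a single pseudogene did. RPLP0P6 had 10.53 log2 CPM against 9.98 for RPLP0, the scaffold of the P stalk that recruits elongation factors. RPL13AP5 had 9.93 against 8.41 for RPL13A. At the other end, 18 of the 60 members held over 90% of the CPM of their set, a set being the member and its pseudogene rows. RPL21 held 4.01% of its set, with 8 pseudogene rows summing to 252 CPM beside its own 10.5 CPM. RPS3A held 6.16%, RPL7 11.6% and RPS28 12.3%. RPL13A, RPS3A and the pseudogenes in this paragraph were chosen after their values were seen.

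Stretches of 30 coding bases are printed for pseudogenes with a high level and for the member with the smallest share of its set, to show sequence that the gene and the pseudogene have in common. The bases are in lower case throughout because none differ.
RPLP0, chr12:120198710-120198739, minus strand: agtgatgtgcagctgatcaagactggagac
RPLP0P6, chr2:38482316-38482345, plus strand: agtgatgtgcagctgatcaagactggagac
RPL13A, chr19:49491425-49491454, plus strand: tttgcctatctggggcgcctggctcacgag
RPL13AP5, chr10:96750690-96750719, plus strand: tttgcctatctggggcgcctggctcacgag
RPL21, chr13:27256184-27256213, plus strand: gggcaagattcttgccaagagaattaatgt
RPL21P16, chr10:120354912-120354941, minus strand: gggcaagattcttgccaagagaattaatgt
Each is the first 30 coding bases of the longest coding exon of the gene, above their best match in the pseudogene. Other parts of RPLP0P6 and RPL13AP5 differ from the gene, as they shared 37.8% and 59.7% of their windows with it. RPL21P16 shared 100% of its windows with RPL21.

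When the CPM of pseudogene rows was added to that of their parents, the median level of the 13 members with over 50% shared windows became 6.96 log2 CPM per kb of the member's exon length, beside 7.45, 7.58 and 6.96 in the groups with 25% to 50%, 5% to 25% and 5% or less. Spearman's rho with the shared share was then 0.0085. Adding rows can only raise a level and leaves members without pseudogene rows unchanged, so the change in rho is no test of read assignment. RPS3A moved from 5.36 to 9.38 on the log2 CPM scale and RPL21 from 3.39 to 8.03. RPL36A, which had no pseudogene row, stayed at 2.78, although 36.0% of its windows are found in its annotated pseudogenes. The sum credits all reads of a pseudogene row to the parent, including any from transcripts of the pseudogene itself.

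**Figure D4:**
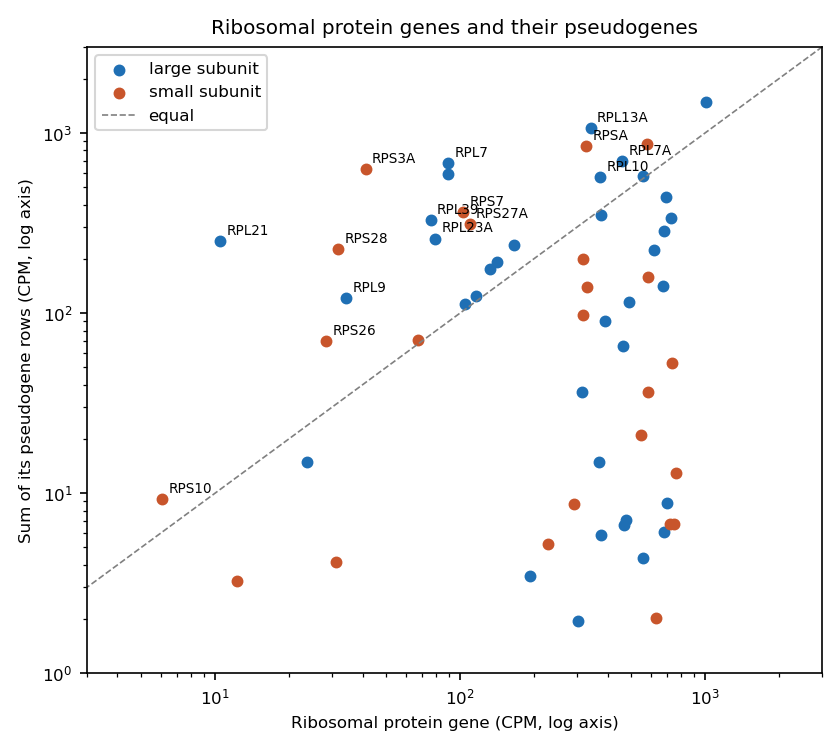
Summed CPM of the pseudogene rows of a gene against the CPM of the gene, both on log axes, for the 60 genes with at least 1 pseudogene row (authors' mean over all 4 samples). The dashed line marks equal values, and 25 genes lie above it, RPL21 with 10.5 CPM beside 252 CPM in pseudogenes.

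Members were then described by their place in the ribosome. In the P stalk, which recruits translation factors, RPLP2 had 8.45 log2 CPM per kb, RPLP0 7.98, RPLP1 7.24 and RPL12 5.85. RPL5 and RPL11, which bind the 5S ribosomal RNA and can inhibit MDM2, had 7.51 and 7.99. Genes of the tunnel exit, where the nascent chain leaves, spread from 3.26 (RPL17) to 8.31 (RPL19). Between them lay RPL35 at 7.996, RPL31 at 6.12, RPL26 at 5.74, RPL39 at 5.16 and RPL23A at 5.15. With pseudogene rows added, the levels were 3.97 (RPL17), 6.18 (RPL31), 6.96 (RPL26), 7.24 (RPL23A), 7.57 (RPL39), 8.30 (RPL35) and 8.32 (RPL19).

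On the small subunit, RPS2 and RPS3 at the entry of the mRNA channel had 7.92 and 6.998 log2 CPM per kb. At the mRNA exit, RPS14 had 6.95, while RPS28 had 3.91 and RPS26 had 3.79. With pseudogene rows added, RPS14 had 6.96, RPS28 6.92 and RPS26 5.58. RPS15 and RPS23, close to the decoding site, had 7.22 and 6.35. RPS6, the substrate of S6 kinase, had 8.05, and RPS27A, which is made as a fusion with ubiquitin, had 5.13. Within these groups, genes such as RPL5 and RPL11 lay close in level, while others, such as RPL17 and RPL19 at the tunnel exit, lay far apart.

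Members were scattered over 21 chromosomes. Chromosome 19 held 12 of them and chromosome X held 4, RPL10, RPL36A, RPL39 and RPS4X. The coding sequences were short, with a median of 453 bases and a range of 75 bases (RPL41) to 1281 bases. Canonical transcripts had 2 to 10 exons, with a median of 5, and a median GC content of 47.4%. Many introns of this family are known to hold small nucleolar RNAs that guide modification of ribosomal RNA. The table held 4 rows for small nucleolar RNAs, and 0 of them lay within a member on either strand. In the table, RPL36 was the member that overlapped another row on the same strand, HSD11B1L, which had 0.92 log2 CPM beside 8.86 for RPL36.

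The start sites of the members were inspected for the TOP motif. It was searched as a C at the annotated RefSeq start followed by at least 4 further C or T on the transcribed strand, in sequence that runs 250 bases before to 50 bases after each start (RefSeq, GRCh38). Of the 83 members, 67 matched an entry. Among those without an entry were RPL5, RPL7, RPL8, RPL23, RPL23A, RPL30, RPL37, RPL39L, RPS2, RPS15A and RPS20. Of the 67 members with an entry, 43 (64.2%, Wilson 95% confidence interval 52.2% to 74.6%) had the tract. The share was 4.07% of 35116 starts in the reference and 5.48% of the 9764 genes of the table with an entry. The intervals cover counting error only and treat genes as independent. The tract was found in 26 of 42 large subunit genes (61.9%, interval 46.8% to 75.0%) and 17 of 25 small subunit genes (68.0%, interval 48.4% to 82.8%), shares whose intervals overlap. The first base was C in 71.6% of members and in 14.7% of all starts. At the start of the canonical GENCODE transcript, 59 of 83 members (71.1%) had the tract, beside 4.58% of 20046 coding genes.

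Tracts among the 43 members were 5 to 19 bases long, with a median of 8. The starts below are printed for the longest tracts, for members with a high level per kb and for the members with low levels, as 10 bases before and 20 bases from the start, with the tract in capitals.
RPL39, chrX:119791611-119791640, minus strand: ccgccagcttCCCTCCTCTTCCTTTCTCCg
RPL7A, chr9:133348208-133348237, plus strand: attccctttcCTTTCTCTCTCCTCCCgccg
RPLP2, chr11:809957-809986, plus strand: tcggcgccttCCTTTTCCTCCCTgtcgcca
RPS12, chr6:132814559-132814588, plus strand: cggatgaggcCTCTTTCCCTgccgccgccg
RPS21, chr20:62387093-62387122, plus strand: ctagctgcttCCTTTCTCTCTCgcgcgcgg
RPS6, chr9:19380217-19380246, minus strand: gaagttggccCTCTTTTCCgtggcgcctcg
RPL36A, chrX:101391001-101391030, plus strand: ctcgcggtttCTTTCTTTCCgcgccgatag
RPS10, chr6:34426050-34426079, minus strand: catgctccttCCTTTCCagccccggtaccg
RPL21, chr13:27251548-27251577, plus strand: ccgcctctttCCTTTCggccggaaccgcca
RPL7A was chosen after its tract was seen. The low members RPL36A, RPS10 and RPL21 carried the tract, while RPL9, RPL17, RPS26, RPS27L and RPS28, also low, did not. Among the members with high levels, RPS12, RPLP2 and RPS21 carried it and RPL10A, RPL19 and RPL36AL did not. By level, the 43 members with the tract had a median of 6.57 log2 CPM per kb and the 24 without it 6.62, so the levels of the groups lay close together.

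Of the 24 members without the tract at the RefSeq start, 20 were canonical and 4 were paralogues, RPL7L1, RPL26L1, RPL36AL and RPS27L. Of the 5 paralogues with an entry, RPL22L1 had the tract. Starts of 3 paralogues and of RPS26 and RPS28 are printed for contrast, with a leading run of pyrimidines in capitals where there is one.
RPL36AL, chr14:49620607-49620636, minus strand: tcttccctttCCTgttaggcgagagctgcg
RPL7L1, chr6:42879606-42879635, plus strand: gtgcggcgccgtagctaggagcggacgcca
RPS27L, chr15:63157458-63157487, minus strand: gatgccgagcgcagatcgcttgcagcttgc
RPS26, chr12:56041908-56041937, plus strand: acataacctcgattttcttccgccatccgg
RPS28, chr19:8321486-8321515, plus strand: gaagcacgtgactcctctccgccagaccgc
In 9 of the 24 a tract of this kind began within 5 bases of the start. The missing match says only that these letters were not at that position.

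**Figure D5:**
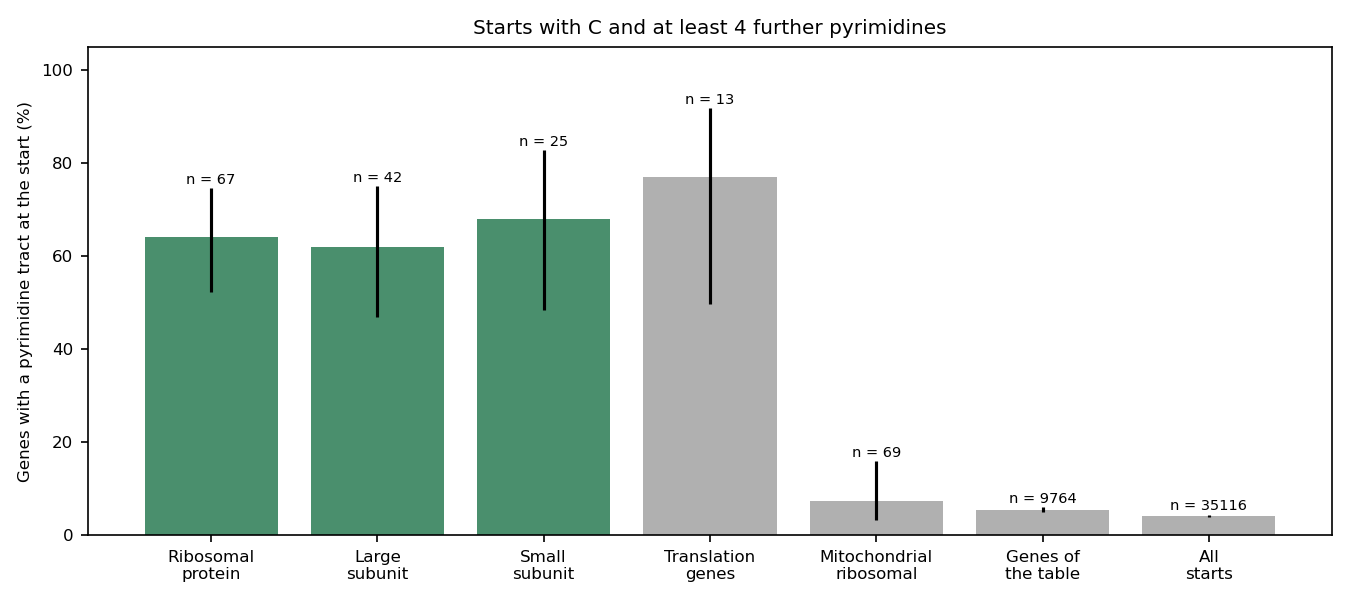
Share of genes (%) whose RefSeq start is a C followed by at least 4 further pyrimidines, with n genes above each bar and Wilson 95% confidence intervals as lines. The bar for the 67 ribosomal protein genes stands at 64.2% and those for the 9764 genes of the table and all 35116 starts at 5.48% and 4.07%.

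Other genes of translation were set beside the members from a list of 19, of which 18 had a row and EEF1G had none. Their median level was 6.28 log2 CPM per kb, and 8 of 18 were above the median of the ribosomal protein genes. The elongation factors EEF1A1 and EEF2, which deliver transfer RNA and move the ribosome, had 9.10 and 8.87, and EEF1B2, an exchange factor for the former, had 5.94. RACK1, a scaffold on the small subunit, had 7.66, and PABPC1, the poly(A) binding protein, had 8.50. FAU, the fusion gene for a ribosomal protein, had 7.19, within the range of the members. The initiation factor subunit EIF3F was lowest of the list at 3.85. The tract at the start was found in 10 of the 13 listed genes with a RefSeq entry, but in 5 of 69 genes of the mitochondrial ribosome.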

How the data were processed

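The samples were MDA-MB-231 Fluc cells given 50 μM cordycepin (n = 2) or DMSO (n = 2) for 2 h. Paired-end reads of 75 bp were mapped by the authors to GRCh38.p13, with rsubread as the counting tool, and the submitters' processing notes also name TopHat, HTSeq, DESeq, Cufflinks and hg38 without their roles. The normalization, the filter on low counts and the treatment of reads matching several genes are not given in the sources used here. The level used is 1 log2 CPM per gene with no sample name, taken as the mean over all 4 samples. The authors' deposited table gives this level and a gene length in bases. It also holds 4 columns of the authors' comparison, its fold change on the log2 scale, F value and p-values before and after adjustment, which were not used. As it holds no value per sample, no test between cordycepin and DMSO was made, and depth and replicate spread are unknown.

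Level per kb is log2 of CPM divided by exon length in kilobases, the exon length being that of the authors' table. Transcript length, coding sequence, windows of 75 bases and identity were taken from the canonical transcripts of GENCODE release 44 (GRCh38), and starts from RefSeq. In this annotation, 99.7% of the table's gene identifiers were found and start and end were identical for 82.1%. Identity is the share of matching positions in a global alignment. The calculations were checked on simulated data. Named are the 5 highest and 5 lowest members on each scale, outliers, paralogues with partners, and members of fixed functional groups. Results for some single genes are not reported here, though those genes stay in the counts and medians. The members and lists were chosen with earlier results of these data known. Alternatives changed the members, length, summary and tract. Python 3.11.15, pandas 2.3.3, scipy 1.17.1, Biopython 1.88 and matplotlib 3.10.9 were used.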

Additional observations from a re-analysis of the deposited data

How the results depend on the processing

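The median level of the members, 8.52 log2 CPM, was 8.55 for canonical genes, 8.47 without RPL36, which overlaps another row, and 8.55 for members at or above the table median. It was 8.86 for members with at most 25% shared windows and 8.88 with pseudogene rows added, both chosen after seeing the data. The difference between large and small subunit medians, -0.21 per kb, was -0.43 with further ribosomal protein genes added whose symbols lie outside the rule, -0.33 for canonical genes, -0.25 without RPL36, -0.94 with the canonical transcript length, -0.19 with the coding length, -0.58 with at most 25% shared windows and -0.060 with pseudogene rows added. It was 0.21 without length and 0.10 with means, so the direction was not stable. The members' share of CPM was 3.08% of the nominal CPM total in place of 3.06% of the table's sum. The median difference between paralogues and partners, -0.55, was -0.51 without length and -2.06 with the transcript length. That of RPS27L, -2.51, was 0.60 without length and -3.52 with the transcript length. The share with a tract, 64.2%, was 35.8% with at least 7 further pyrimidines (1.45% of all starts) and 77.6% within 5 bases of the start (21.1% of all starts). The pseudogene median, 3.44, was 6.84 for those at or above the table median. This cut, like the same cut on members, drops rows by their own level and so can only raise the median. No paired analysis was possible because the table holds no value per sample, and for the same reason no replicate could be left out. Causes of these differences were not tested.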
